A study of Homo sapiens with 6 samples.

Results

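The proteasome genes of the deposited table were taken as every gene symbol that starts with PSMA, PSMB, PSMC, PSMD, PSME, PSMF or PSMG, which gave 41 of the 8529 genes. By the letter that follows PSM, 15 were assigned to the core particle (PSMA, PSMB) and 18 to the regulatory particle (PSMC, PSMD). Another 8 were assigned to the activators, the inhibitor and the core assembly chaperones (PSME, PSMF, PSMG). The regulatory class so defined also holds the base assembly chaperones PSMD5, PSMD9 and PSMD10, and PSMC3IP, which is not a proteasome subunit. They were measured in SW480, a human colorectal cancer cell line with the genotype given as WT, on hydrogels of 2 kPa (soft, 3 libraries) or 25 kPa (stiff, 3 libraries). Both groups were grown for 72 h in 6-well plates, so that stiffness is the only difference the labels give, and 1 cell line stands for the tumour. Whether the 3 cultures of a group were grown on separate days is not stated, and the p-values then measure only the spread between these cultures. PSMA8, PSMB5, PSMB6, PSMB11, PSMC1, PSMD1, PSMD2 and PSME3 were not analysed here.

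The proteasome is the protease that degrades proteins marked with ubiquitin. Its core particle is a stack of rings, in which the outer alpha subunits (PSMA) gate the channel and the inner beta subunits (PSMB) line the chamber, some of them carrying the catalytic sites. The regulatory particle sits on the core as a base, whose ATPases (PSMC) unfold the substrate, and a lid of several PSMD subunits, which removes ubiquitin chains. Cells with a shortage of proteasomes are known to raise the transcription of nearly all subunit genes together through the factor NFE2L1, and interferon exchanges the catalytic subunits for PSMB8, PSMB9 and PSMB10, the immunoproteasome subunits.

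The values are FPKM, fragments scaled to transcript length and to the mapped reads of the library. The scale is meant for setting levels of different genes side by side, but which transcripts a value covers is not stated. The summed FPKM of the whole table ranged from 201030 in 2 kPa replicate 2 to 263028 in 25 kPa replicate 2, and the number of reads behind a value is unknown. Of 12 markers of colorectal epithelial cells, 9 were in the table, with KRT18 at 2611 to 3358 FPKM and EPCAM at 64.7 to 101 FPKM, whereas CDX1, CDX2 and KRT20 were below 1 FPKM in every library. Of the 9, KRT19 (1448 to 1623 against 909 to 1402 FPKM), ELF3 (10.5 to 16.7 against 6.11 to 9.72 FPKM) and CDX2 (0.57 to 0.79 against 0.07 to 0.31 FPKM) were lower at 25 kPa without overlap, with adjusted p of 0.537, 0.352 and 0.224 in limma. The summed level of these epithelial markers was 4498 to 4821 FPKM at 2 kPa and 3697 to 4872 FPKM at 25 kPa. Fibroblast markers were represented by 3 of 7 genes, with a summed level of 0.31 to 0.56 FPKM on the soft and 0.49 to 1.11 FPKM on the stiff matrix. Leukocyte markers were represented by 2 of 6, at 3.93 to 5.41 and 2.32 to 3.54 FPKM. The part of these differences in the results was not tested. None of 4 endothelial markers was in the table.

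Of the proteasome genes, 26 of 41 had a mean of at least 10 FPKM, as had 2229 of all 8529 genes, and their levels were far from equal. The mean over the 6 libraries ran from 0.173 FPKM for PSMD5 to 416 FPKM for PSMB4, with 17 genes at 50 FPKM or more and 15 under 10 FPKM. Subunits that are built into the particle in equal numbers also differed. Within the alpha ring, PSMA7 had a mean of 339 FPKM and PSMA6 of 0.47 FPKM, a 720-fold range. Within the lid, PSMD8 had 203 FPKM and PSMD6 1.06 FPKM, a 191-fold range, and among the ATPases PSMC3 had 171 FPKM and PSMC6 1.00 FPKM, a 170-fold range. The table does not say which transcripts a value covers, and GAPDH, a gene usually abundant in every cell, was listed at 0.32 to 3.35 FPKM. A low listed level of a subunit is therefore uncertain. GENCODE names pseudogenes for 11 of the 41 genes, among them PSMA6 with 4, and reads of such copies could have been split. Of the 15 genes under 10 FPKM, 2 had a named pseudogene, and the part of pseudogenes in these levels was not tested. Another gene lies over 11 of them on the same strand and over 22 on the opposite strand, and whether the counting used strand is not stated.

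**Figure D1:**
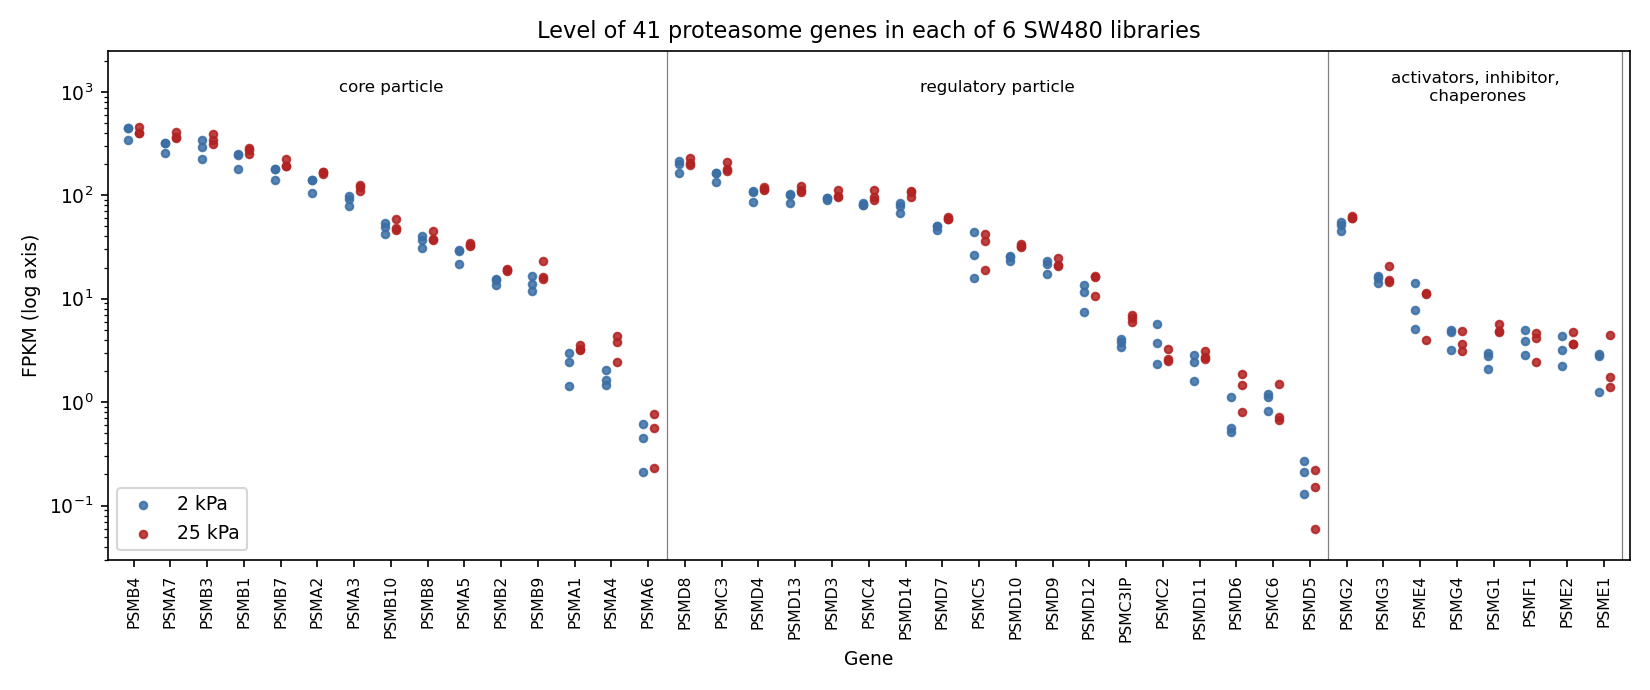
FPKM on a log axis for each of the 41 genes, grouped by class and ordered by mean level, with 1 point per library (blue, 2 kPa; red, 25 kPa). PSMB4, with a mean of 416 FPKM, is at the left of the core particle and PSMA6, at 0.47 FPKM, at its right, and the spread between genes is far larger than that between stiffness levels.

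The comparison of 25 kPa with 2 kPa asks whether matrix stiffness goes with the level of proteasome mRNA. On the stiff matrix 35 of the 41 genes had a higher mean on the log2 scale and 6 a lower one, against 59.6% of all genes higher, and 29, 32 and 33 of the 41 were higher with FPKM scaled to equal library sums, by quantile normalisation and by median centring. The median log2 fold change (25 kPa minus 2 kPa, on log2(FPKM + 1)) was 0.26, against 0.05 over all genes. No proteasome gene passed an adjusted p under 0.05 by limma (0 of 41), where 0.117% of all genes did, and the smallest adjusted p was 0.244. At an unadjusted p under 0.05, 13 of the 41 were higher at 25 kPa, where 6.96% of all genes were, and 0 were lower, where 3.19% of all genes were. The 3 libraries at 25 kPa all lay above the 3 at 2 kPa for 19 of the 41 genes, against 11.2% of all genes, and all below for 0, against 4.78%. Each of the 26 proteasome genes with a mean of at least 10 FPKM was higher on the stiff matrix (21, 23 and 25 of them under the same scalings), and their median was 0.28. Over all 2229 genes at this level, 66.1% were higher and the median was 0.10. Of the 26, 10 were higher at an unadjusted p under 0.05 and 15 did not overlap in that direction, against 289 and 413 of the 2229. These are larger shares than those over all genes. In bulk RNA a higher level per cell and a larger share of cells with that level cannot be told apart.

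**Figure D2:**
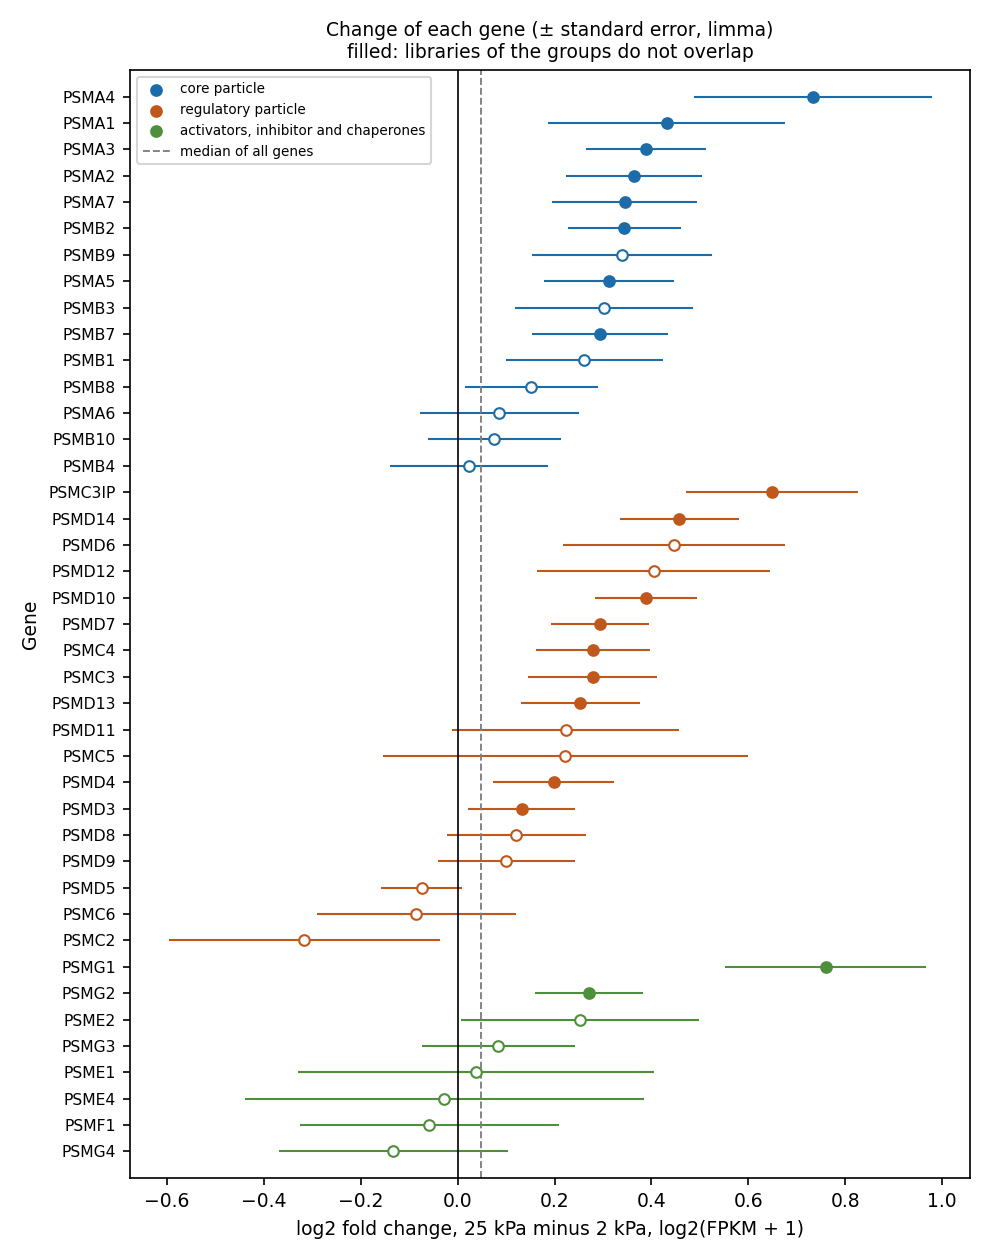
The log2 fold change of each gene (horizontal axis, 25 kPa minus 2 kPa) with its standard error from limma, by class. Filled points are the 19 genes whose libraries do not overlap between groups, all of them to the right of 0, and the dashed line is the median of all genes, 0.05.

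In the core particle 15 of 15 genes had the higher mean on the stiff matrix, although PSMB4 turned under all 3 scalings and PSMB10 with equal library sums. Both also turned without 2 kPa replicate 2 and without 25 kPa replicate 2, and PSMA6 without 2 kPa replicate 3 or 25 kPa replicate 1. With the GC trend removed, PSMA6 and PSMB4 turned. The median log2 fold change was 0.31, and it was 0.19 with equal library sums and 0.18 after quantile normalisation. Of the 15, 6 were higher at an unadjusted p under 0.05 and 8 did not overlap, against 6.96% and 11.2% of all genes in this direction. The alpha subunits made up most of them, with 6 of 7 genes not overlapping and a median log2 fold change of 0.36.

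PSMA3, an alpha subunit, was measured at 99.4, 79.0 and 93.0 FPKM in the soft libraries and at 119, 110 and 126 FPKM in the stiff ones. The lowest stiff library lay above the highest soft one, and the log2 fold change was 0.39 ± 0.12 (SE, adjusted p in limma = 0.333). PSMA2 had 141, 105 and 141 FPKM at 2 kPa and 167, 160 and 168 FPKM at 25 kPa, again without overlap. Its log2 fold change was 0.36 ± 0.14 (SE, adjusted p in limma = 0.421). The most abundant alpha subunit, PSMA7, had 319, 255 and 323 FPKM on the soft matrix and 361, 411 and 363 FPKM on the stiff one. This is a log2 fold change of 0.34 ± 0.15 (SE, adjusted p in limma = 0.486). In all 3 genes 2 kPa replicate 2 was the lowest library, and the gap between the groups was smaller than the distance from that library to the others of its group.

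PSMA4 had a log2 fold change of 0.73 ± 0.25 (SE, adjusted p in limma = 0.353), at a low level of 2.05, 1.45 and 1.62 FPKM at 2 kPa and 3.83, 4.38 and 2.46 FPKM at 25 kPa. PSMA5 had 29, 21.9 and 29.3 FPKM in soft and 32.7, 34.3 and 32.5 FPKM in stiff libraries, without overlap (means with SD 26.7 ± 4.19 and 33.2 ± 0.950, n = 3). For PSMA1, listed at 1.44 to 2.99 FPKM at 2 kPa and 3.17 to 3.58 FPKM at 25 kPa, the unadjusted p was 0.113 although the libraries did not overlap. PSMA6 was the alpha subunit whose libraries overlapped, at 0.61, 0.45 and 0.21 FPKM in soft and 0.76, 0.23 and 0.56 FPKM in stiff libraries.

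Among the beta subunits outside the immunoproteasome, 5 of 5 had the higher mean at 25 kPa, PSMB4 not under the 3 scalings. Of these, 2 did not overlap, against 11.2% of all genes in this direction. PSMB2 had 15.6, 15.1 and 13.6 FPKM at 2 kPa and 19.0, 19.2 and 18.8 FPKM at 25 kPa. Both groups were tight, and the log2 fold change was 0.34 ± 0.12 (SE, adjusted p in limma = 0.356). PSMB7, the subunit with the trypsin-like site, had 180, 141 and 178 FPKM at 2 kPa and 193, 223 and 194 FPKM at 25 kPa, which did not overlap (log2 fold change 0.29, standard error 0.14, limma adjusted p = 0.535). PSMB1 and PSMB3 had log2 fold changes of 0.26 and 0.30, with libraries that overlapped. They were 0.10 and 0.13 without 2 kPa replicate 2, and 0.08 and 0.10 after quantile normalisation. PSMB4, the most abundant of the 41, also overlapped. It had 451, 344 and 446 FPKM at 2 kPa and 397, 458 and 400 FPKM at 25 kPa, a log2 fold change of 0.02 ± 0.16 (SE), and its direction turned when the FPKM were scaled to equal library sums, by quantile normalisation or by median centring.

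The immunoproteasome subunits were all expressed. PSMB8 had 36.8, 30.9 and 40.1 FPKM at 2 kPa and 36.9, 45.5 and 37.5 FPKM at 25 kPa. PSMB9 had 14.0, 11.9 and 16.5 FPKM at 2 kPa and 16.1, 23.3 and 15.4 FPKM at 25 kPa. PSMB10 had 49.8, 42.2 and 54.0 FPKM on the soft matrix and 46.4, 58.9 and 48.7 FPKM on the stiff one. In all 3 genes the groups overlapped, and 25 kPa replicate 2 was the highest library of all 6. Their log2 fold changes were 0.15 (standard error 0.14), 0.34 (standard error 0.19) and 0.08 (standard error 0.14), with limma adjusted p from 0.590 to 0.909. PSMB8 and PSMB9 overlap each other on opposite strands in GENCODE, and PSMB9 also overlaps the transporter gene TAP1. Reads in the shared stretches cannot be assigned without strand.

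PSMB10 takes the place of PSMB7 in the immunoproteasome, and the ratio of both within a library does not depend on a common factor per library. PSMB10 stood at 0.277, 0.30 and 0.303 times the FPKM of PSMB7 in the soft libraries and at 0.241, 0.264 and 0.251 times in the stiff ones. All 3 stiff libraries were lower. The log2 ratio averaged −1.75 ± 0.07 on the soft and −1.97 ± 0.06 on the stiff matrix (SD, n = 3 each), a difference of −0.22 (p = 0.1 by a two-sided exact permutation test, which can give no smaller value with 3 against 3). The difference was −0.14 after quantile normalisation (exact permutation p = 0.3) and −0.13 with the GC trend of each library removed (exact permutation p = 0.1). The GC content of the transcripts is 60.1% for PSMB10 and 49.9% for PSMB7. With 1 ratio tested, no adjustment was made.

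For the regulatory particle, 15 of 18 genes had the higher mean on the stiff matrix, and the median log2 fold change was 0.24. With equal library sums PSMD8 and PSMD9 turned, and after quantile normalisation PSMD3 and PSMD8. PSMC5 turned without 2 kPa replicate 3 (−0.13) and without 25 kPa replicate 3 (−0.0023), and PSMD9 without 2 kPa replicate 2 (−0.017). PSMC6, lower as reported, was higher without 25 kPa replicate 2 (0.018) and further below 0 without 25 kPa replicate 3 (−0.27). Of the 18, 5 were higher at an unadjusted p under 0.05 and 9 did not overlap, against 6.96% and 11.2% of all genes in this direction. In the lid 8 of 8 subunits were higher, PSMD3 and PSMD8 not under each of these scalings, and 4 did not overlap. PSMD14, the metalloprotease of the lid that cuts ubiquitin chains from the substrate, had 83.8, 66.8 and 78.1 FPKM at 2 kPa and 111, 96.5 and 107 FPKM at 25 kPa. The groups did not overlap, and the gap between them was smaller than the range within either. The log2 fold change was 0.46 ± 0.12 (SE), and PSMD14 had the smallest p of the 41 genes (rank 179 of all genes, limma adjusted p = 0.244).

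PSMD7, a lid subunit that pairs with PSMD14, had 50.1, 45.8 and 50.2 FPKM at 2 kPa and 62.0, 59.1 and 58.5 FPKM at 25 kPa. Its libraries did not overlap, with a log2 fold change of 0.29 ± 0.10 (SE, adjusted p in limma = 0.357). PSMD13 and PSMD3 did not overlap either, with log2 fold changes of 0.25 and 0.13. The remaining lid subunits PSMD6, PSMD8, PSMD11 and PSMD12 had log2 fold changes from 0.12 to 0.45 and overlapped between groups.

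In the base, PSMC4 had 83.8, 80.5 and 80.7 FPKM at 2 kPa and 96.9, 113 and 89.7 FPKM at 25 kPa, a log2 fold change of 0.28 ± 0.12 (SE, adjusted p in limma = 0.461). PSMC3 had 164, 136 and 163 FPKM at 2 kPa and 180, 209 and 174 FPKM at 25 kPa, a log2 fold change of 0.28 ± 0.13 (SE). The stiff libraries were the higher ones for both of these ATPases. The ubiquitin receptor PSMD4 did not overlap either, at 86.4 to 110 FPKM against 113 to 119 FPKM. The other ATPases overlapped between groups. PSMC5 had 26.2, 44.0 and 15.8 FPKM at 2 kPa and 36.3, 19.0 and 42.6 FPKM at 25 kPa, so that libraries of 1 group were further apart than the group means. PSMC2 had 2.33, 5.64 and 3.71 FPKM at 2 kPa and 3.24, 2.49 and 2.64 FPKM at 25 kPa, a log2 fold change of −0.32 ± 0.28 (SE, adjusted p in limma = 0.782). It was −0.57 without 2 kPa replicate 1 and −0.07 without 2 kPa replicate 2. PSMC6 had 1.12, 1.2 and 0.83 FPKM in soft and 0.72, 0.67 and 1.49 FPKM in stiff libraries, with overlap.

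Of the chaperones that assemble the base, PSMD10, also known as gankyrin, had 25.3, 23.2 and 25.7 FPKM at 2 kPa and 31.8, 32.4 and 33.8 FPKM at 25 kPa. The spread within each group was small beside the gap between them, and the log2 fold change was 0.39 ± 0.10 (SE, adjusted p in limma = 0.244). PSMD9 overlapped between groups, at 20.8 ± 3.03 and 22.3 ± 2.09 FPKM (SD, n = 3). PSMD5 was listed at 0.21, 0.27 and 0.13 FPKM at 2 kPa and 0.06, 0.15 and 0.22 FPKM at 25 kPa, too low for a difference to be read.

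PSMC3IP, which the symbol places in the regulatory class, is not a proteasome subunit. Its protein was found as a partner of PSMC3 and works in meiotic recombination. It had 4.10, 3.40 and 3.84 FPKM at 2 kPa and 7.04, 6.51 and 5.94 FPKM at 25 kPa without overlap (log2 fold change 0.65, standard error 0.18, limma adjusted p = 0.252). Without it the median of the regulatory particle was 0.22, and 4 of 17 genes were higher at an unadjusted p under 0.05, against 6.96% of all genes.

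The activators, the inhibitor and the core chaperones had a median log2 fold change of 0.06, near that of all genes, with 5 of 8 higher and 3 lower at 25 kPa. This median turned to −0.05 with FPKM scaled to equal library sums and to −0.019 without 2 kPa replicate 3, and it was 0.21 without 25 kPa replicate 3. Of the 8, 2 were higher at an unadjusted p under 0.05 and 2 did not overlap, against 6.96% and 11.2% of all genes. Both counts refer to PSMG1 and PSMG2, which form the pair of chaperones that starts the alpha ring. PSMG1 had 3.0, 2.77 and 2.08 FPKM at 2 kPa and 4.74, 5.68 and 4.88 FPKM at 25 kPa. Its groups lay apart with a log2 fold change of 0.76 ± 0.21 (SE, adjusted p in limma = 0.249). PSMG2 had 51.5, 45.4 and 55.5 FPKM at 2 kPa and 63.1, 60.1 and 60.8 FPKM at 25 kPa, a log2 fold change of 0.27 ± 0.11 (SE, adjusted p in limma = 0.453). The other pair of chaperones, PSMG3 and PSMG4, overlapped between groups, with log2 fold changes of 0.08 (standard error 0.16) and −0.13 (standard error 0.24). PSMG3 turned with equal library sums and without 25 kPa replicate 2 (−0.07).

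The subunits of the activator cap PA28, PSME1 and PSME2, which open the core without ATP, were low. PSME1 had 2.82, 2.92 and 1.24 FPKM at 2 kPa and 1.76, 4.51 and 1.39 FPKM at 25 kPa, and PSME2 4.4, 2.25 and 3.17 FPKM against 3.67, 4.74 and 3.62 FPKM. PSME4, the large single-chain activator, had 7.74, 14.1 and 5.05 FPKM at 2 kPa and 11.2, 4.03 and 11.3 FPKM at 25 kPa. PSMF1, an inhibitor of the core, had 3.88, 5.03 and 2.87 FPKM at 2 kPa and 4.17, 2.47 and 4.62 FPKM at 25 kPa. The groups overlapped for each of these 4 genes, and their log2 fold changes lay between −0.06 and 0.25 with standard errors of 0.25 to 0.41. PSME1 turned with equal library sums, with median centring, without 2 kPa replicate 3 (−0.22) and without 25 kPa replicate 2 (−0.33). Without 2 kPa replicate 2 the values were 0.32 for PSME4 and 0.10 for PSMF1, and without 25 kPa replicate 2 they were 0.40 and 0.15. With each library left out, PSME4 ranged from −0.34 to 0.40, PSMF1 from −0.22 to 0.15 and PSME1 from −0.33 to 0.27.

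Summed over the 41 genes, proteasome FPKM came to 2976, 2415 and 2982 at 2 kPa and to 3226, 3494 and 3149 at 25 kPa. The stiff libraries were higher, and the lowest sum belonged to 2 kPa replicate 2. As a share of all FPKM in the library, the proteasome genes took 1.28, 1.2 and 1.27% at 2 kPa and 1.39, 1.33 and 1.34% at 25 kPa, so that the groups stayed apart after division by the library sum. Core particle genes summed to 1881, 1453 and 1935 FPKM at 2 kPa and 2009, 2232 and 1975 FPKM at 25 kPa. Regulatory particle genes summed to 1001, 869 and 958 FPKM at 2 kPa and 1110, 1155 and 1070 FPKM at 25 kPa. The most abundant genes dominate these sums, which are given with no test.

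The libraries of a group did not vary evenly across the genes. In 2 kPa replicate 2, 26 of the 41 proteasome genes were at their lowest within the group, whereas 26.6% of all genes were. In 25 kPa replicate 2, 23 of the 41 were at their highest within the group, against 33.1% of all genes. These were also the libraries with the lowest and the highest FPKM sum. PSMC2, PSMC5, PSMC6, PSMD12, PSME4 and PSMF1, singled out after their values were seen, went the other way. In each of them 2 kPa replicate 2 was the highest and 25 kPa replicate 2 the lowest library of its group. Many genes of the table shared these positions. Over all genes, 49.7% were highest within the group in 2 kPa replicate 2, and 44.2% were lowest in 25 kPa replicate 2. Of the 41 proteasome genes, 10 and 11 were. Without 2 kPa replicate 2, the median over the proteasome genes was 0.18, against 0.08 over all genes, and the core median was 0.18 in place of 0.31. The number of genes without overlap was then 20, against 21.1% of all genes, and 9 were higher at an unadjusted p under 0.05, against 8.50% of all genes. Without 25 kPa replicate 2 the median was 0.21, against 0.06 over all genes.

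**Figure D3:**
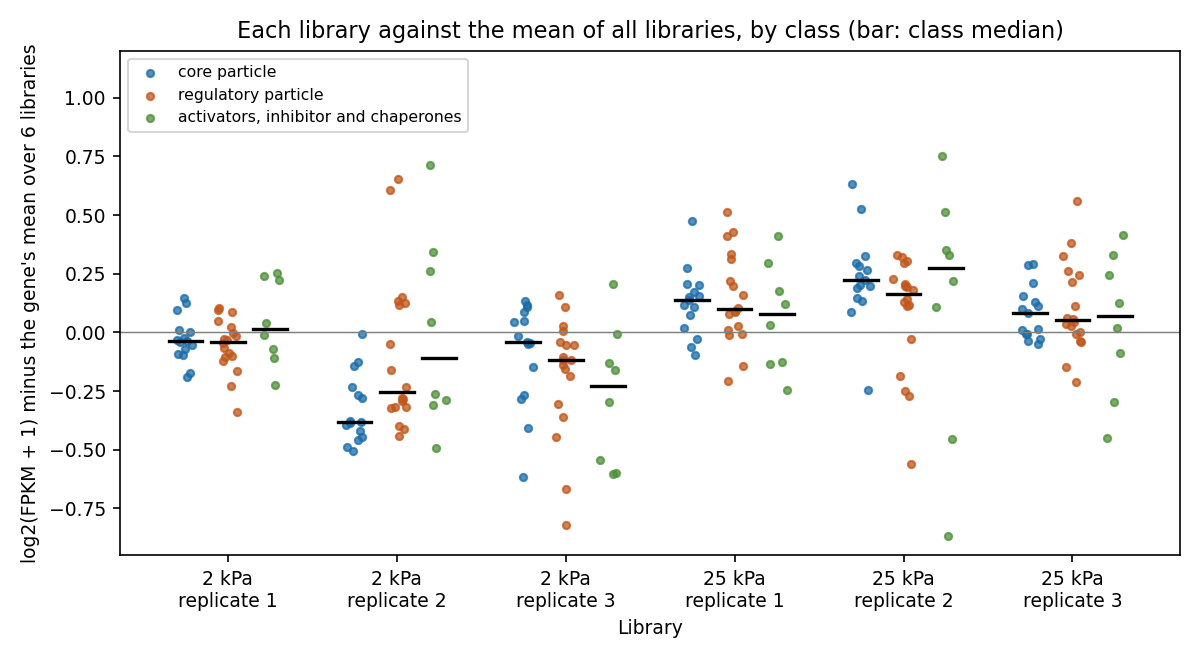
The log2(FPKM + 1) of each gene in each library minus its mean over the 6 libraries (vertical axis), by class, with a bar at the class median. The core and regulatory medians lie below 0 in the 3 libraries at 2 kPa, furthest in replicate 2, and above 0 in the 3 at 25 kPa.

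The position of replicate 2 within its group moved with the GC content of the transcripts, more clearly at 25 kPa. Over the 41 proteasome genes, the difference between 25 kPa replicate 2 and the mean of replicates 1 and 3 correlated with GC content at a Spearman rho of 0.69 and a Pearson r of 0.48. At 2 kPa the same measure gave a rho of −0.32 and an r of −0.30. These are descriptions over genes that share libraries, and over 8183 genes of the table the rho was 0.35 at 25 kPa and 0.02 at 2 kPa. The log2 fold change between stiffness levels correlated with GC content at r = −0.09 over the proteasome genes and −0.30 over the 8183 genes. With each library's trend over GC content removed, the median of the proteasome genes was 0.20, against −0.0046 over all genes with a GC value, and 13 genes did not overlap in the higher direction, against 7.82% of all genes.

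**Figure D4:**
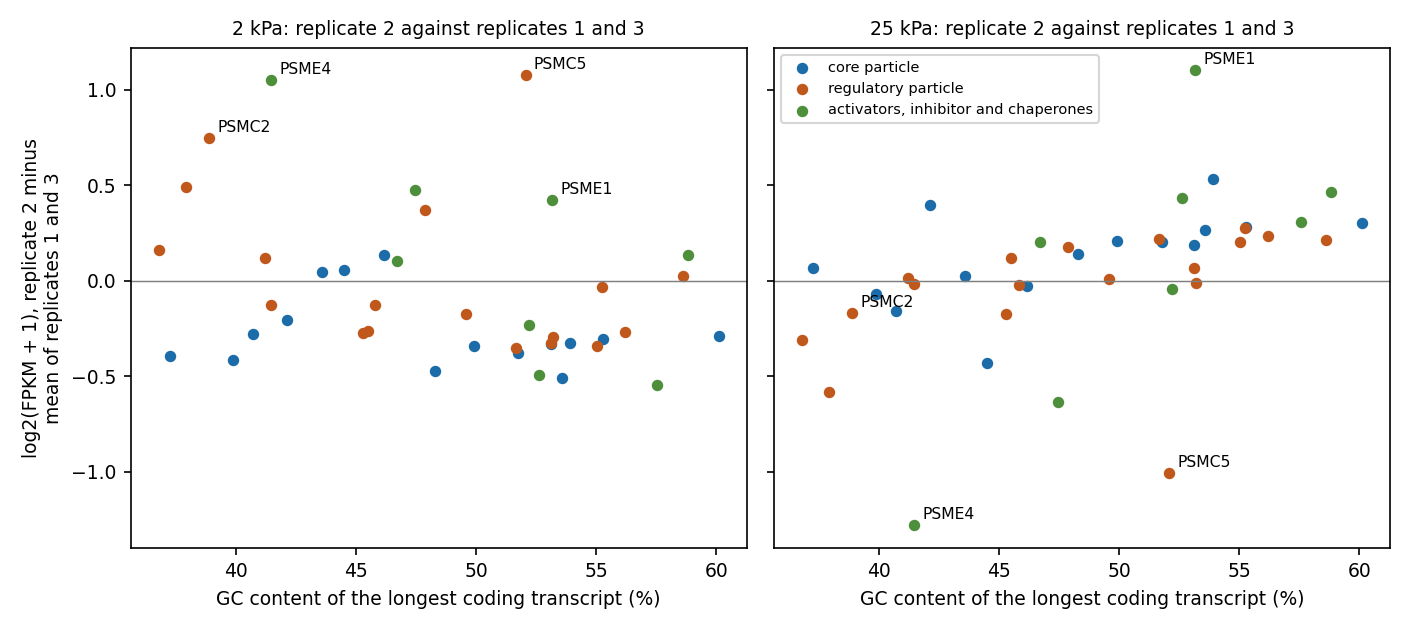
For each gene, log2(FPKM + 1) in replicate 2 minus the mean of replicates 1 and 3 of the same stiffness (vertical axis) against the GC content of its longest coding transcript (horizontal axis). At 25 kPa the points climb with GC content (rho 0.69), with PSMC5, PSME4 and PSME1 furthest from 0.

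The number of proteasome genes higher at an unadjusted p under 0.05 was 13 as reported, 8 after quantile normalisation and 5 after median centring or scaling to equal library sums. The shares of all genes were 5.52% after quantile normalisation, 4.57% after median centring and 3.48% with equal library sums. Over all genes, 68.6% of the calls at this p were higher at 25 kPa as reported, and 51.1, 49.9 and 42.7% under these scalings, whereas 0 proteasome genes were lower under any of them. The median log2 fold change of the proteasome genes stayed above that of all genes by 0.16 to 0.21 under the 3 scalings. Among single genes, PSMD14, PSMG1 and PSMC3IP had an unadjusted p under 0.05 in 15 of the 15 alternatives, PSMD10 and PSMA4 in 13, and no proteasome gene had an adjusted p under 0.05 in any of them, the smallest being 0.149 for PSMG1.

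**Figure D5:**
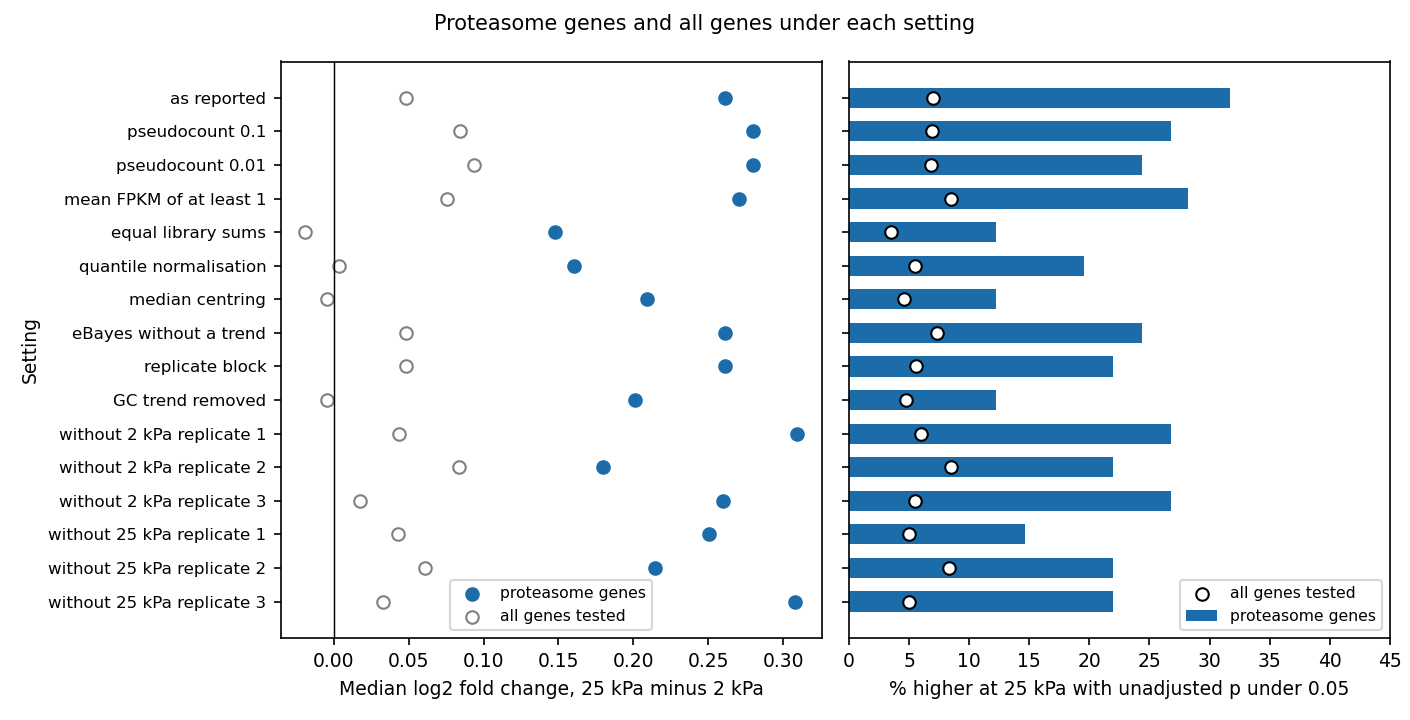
Left, the median log2 fold change of the proteasome genes (filled) and of all genes tested (open) under each setting. Right, the percentage of proteasome genes (bars) and of all genes (open points) higher at 25 kPa with an unadjusted p under 0.05. The filled points run from 0.15 to 0.31 and lie to the right of the open points in every setting.

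Other genes of the proteasome system, whose symbols do not start with these letters, were followed in a separate list of 31 symbols, of which 18 were in the table. Of these, 15 had the higher mean at 25 kPa, against 59.6% of all genes. At an unadjusted p under 0.05, 4 were higher and 0 lower, against 6.96% and 3.19% of all genes. In the higher direction 6 did not overlap, against 11.2%, and 0 passed an adjusted p under 0.05, against 0.117%. The median log2 fold change of the 18 was 0.20, against 0.05 over all genes. SHFM1, the smallest subunit of the lid, had 176, 142 and 206 FPKM at 2 kPa and 242, 234 and 269 FPKM at 25 kPa, a log2 fold change of 0.52 ± 0.16 (SE, adjusted p in limma = 0.30). POMP, a chaperone of core particle assembly, had 54.6, 38.2 and 65.7 FPKM at 2 kPa and 71.1, 72.8 and 76.5 FPKM at 25 kPa, a log2 fold change of 0.50 ± 0.18 (SE, adjusted p in limma = 0.398). In both genes the lowest stiff library lay above the highest soft one. NFE2L2, a transcription factor of the oxidative stress response that can also drive subunit genes, had 2.84, 3.82 and 2.51 FPKM against 4.86, 4.06 and 7.29 FPKM (log2 fold change 0.64, standard error 0.25, limma adjusted p = 0.426). MAFK, a small partner protein of such factors, had 2.23, 2.26 and 0.74 FPKM against 3.15, 4.26 and 2.77 FPKM (log2 fold change 0.72, standard error 0.30, limma adjusted p = 0.457). MAFG, another such partner, went the other way with overlap, at 10.4, 16.9 and 8.76 FPKM against 9.13, 8.83 and 5.66 FPKM (log2 fold change −0.53, standard error 0.26, limma adjusted p = 0.552). NFE2L1 and ADRM1 were not analysed here.

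NFE2L1 and NFE2L2 bind the antioxidant response element, and RefSeq promoters (GRCh38.p14, 250 bases before to 50 after the gene start) were searched on both strands for its core, TGACNNNGC. Promoters were found for 36 of the 41 genes, all but PSMA7, PSMB1, PSMB7, PSMD4 and PSMG3. The core letters were in the promoters of 14 of the 36 (38.9%), against 16.1% of the 27305 gene symbols with a promoter and 18.8% of the 6454 of them that are in the table. By class, the letters were found for 3 of 12 core, 6 of 17 regulatory and 5 of 7 other genes. The stretches below are shown because they hold a match before the start in genes that did not overlap between groups (PSMA4, PSMG1, PSMG2) and in genes that did (PSMB3, PSMD12, PSMC5). They are printed 5′ to 3′ on the strand of the gene, with the 9 matching bases in capitals, and the PSMC5 match lies on the opposite strand.
PSMA4, chr15:78540640-78540688, plus strand: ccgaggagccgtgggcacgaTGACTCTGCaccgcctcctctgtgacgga
PSMG1, chr21:39183606-39183654, minus strand: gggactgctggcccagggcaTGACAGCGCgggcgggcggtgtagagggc
PSMG2, chr18:12658679-12658727, plus strand: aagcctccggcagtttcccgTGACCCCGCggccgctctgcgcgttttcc
PSMB3, chr17:38752617-38752665, plus strand: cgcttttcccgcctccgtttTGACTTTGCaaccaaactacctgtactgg
PSMD12, chr17:67366714-67366762, minus strand: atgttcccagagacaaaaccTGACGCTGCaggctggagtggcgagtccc
PSMC5, chr17:63827644-63827692, plus strand: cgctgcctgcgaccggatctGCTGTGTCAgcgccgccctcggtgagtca

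The median log2 fold change was 0.26 for the 14 genes with a match and 0.27 for the 22 without. A match was present in 5 of the 16 genes with a promoter that did not overlap between groups (31.2%) and in 9 of the 20 that overlapped (45%). PSMD14 and PSMD10, among the genes with the smallest p, had no match in this window.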

How the data were processed

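RNA of SW480 cells was sequenced in 6 libraries, 3 at 2 kPa and 3 at 25 kPa, assigned from their titles. The deposited table holds FPKM by gene symbol for each library, which the authors made after assessing read quality and predicting coding potential. The submitters' processing notes name HISAT, StringTie, Bowtie2, RSEM and hg18 without roles or versions, and the annotation is not given in the sources used here. The values show no steps of whole reads, so depth is unknown. DESeq2, named in the study's methods, needs counts and was not run.

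From the deposited FPKM, log2(FPKM + 1) was compared with limma 3.58.1 in R 4.3.3 (variance trend, two-sided, Benjamini-Hochberg over all 8529 genes). The program was tested on simulated data. Members are named where they had an adjusted p under 0.05 (none), the 8 smallest p higher or the 4 smallest p lower, are catalytic, immunoproteasome, PSMC, PSME, PSMF or PSMG genes, or are not part of the proteasome, and of the other proteasome genes the 4 with the smallest p plus NFE2L1, NFE2L2, ADRM1 and POMP. Other members are given as counts or chosen after their values were seen. Members, lists and tests were chosen with earlier results of these data known. The ratios of PSMB8 to PSMB5 and PSMB9 to PSMB6 could not be made.

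Processing was varied by pseudocount (0.1 and 0.01), by keeping genes whose mean reached 1 FPKM, by 3 scalings, by fitting no variance trend, by a replicate block and by leaving out each library. Removal of a GC trend (lowess, span 0.3, GENCODE 29, 8183 genes) and leaving out PSMC3IP were added after seeing the data. GENCODE and RefSeq are on GRCh38, so no gene coordinates are given beyond the promoters. Python 3.11.15 was used for figures.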

Additional observations from a re-analysis of the deposited data

How the results depend on the processing

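No proteasome gene had an adjusted p under 0.05 in any of 15 alternatives. The medians of the core and regulatory particles kept their direction in all of them. The number of genes higher at 25 kPa with an unadjusted p under 0.05, 13 as reported, was 5 with FPKM scaled to equal library sums, 8 after quantile normalisation, 5 after median centring and 5 after removal of the GC trend, where 4.74% of all genes were called and 1 gene, PSMD5, was lower both by p and without overlap. With each library left out it ranged from 6 (without 25 kPa replicate 1) to 11, and the share of all genes from 5.02 to 8.50%. The number of genes without overlap in the higher direction, 19 as reported, was 10, 12 and 9 under the 3 scalings in that order, against 5.33, 8.41 and 7.82% of all genes, and in the lower direction it ranged from 0 to 1 with each library left out. The regulatory median of 0.24 was 0.13 with equal library sums, and 0.19 to 0.28 with each library left out. The core median ranged from 0.18 to 0.35 and that of the activators, inhibitor and chaperones from −0.019 to 0.21 in the same fits. The last was −0.05 with equal library sums. The cause of these shifts was not tested. Same-numbered libraries did not deviate together (r = 0.11, −0.27 and −0.12 over all genes), so the numbers were not taken as pairs. With the replicate block, 9 genes were higher at an unadjusted p under 0.05, against 5.58% of all genes. In that fit 0 were lower, where 237 of the 8529 genes were. The PSMB10 to PSMB7 difference stayed between −0.26 and −0.19 with each library left out, but was −0.14 after quantile normalisation and −0.13 with the GC trend removed, both added after seeing the data. Over all genes, 10 passed an adjusted p under 0.05 as reported. This was 17 and 15 with pseudocounts of 0.1 and 0.01, 15 with a mean FPKM of at least 1 or equal library sums, 6 without a variance trend, 3 with the replicate block and 3 to 11 with each library left out.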
